A study of Mus musculus with 4 samples.

Results

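Ribosomal protein pseudogenes are copies of ribosomal protein genes whose symbols carry the ending -ps, such as Rpl34-ps1 beside its parent Rpl34. They were taken from the table by symbol alone, as every name that begins with Rpl or Rps and ends in -ps with or without a number. Of 320 such names, 106 had 0 counts in every library and 214 had a summed count above 0. These 214 members, 121 of the large ribosomal subunit and 93 of the small one, stood among 21018 named genes with a count above 0 and 35798 named genes in all. They belonged to 55 parent genes, all of which were in the table.

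The RNA came from Ly49H+ NK cells sorted from spleen at D3.5 of MCMV infection (mouse cytomegalovirus). Wild-type cells carried the CD45.1 form of the leukocyte antigen CD45, and cells lacking TNFR2, the receptor encoded by Tnfrsf1b, carried CD45.2. Both were co-transferred into NSG mice, which lack their own T, B and NK cells but keep myeloid cells and themselves carry CD45.1, and each genotype gave 2 libraries, with 4 in all. Libraries 1 of both genotypes came from one pool of spleens from 3 mice, as did libraries 2, and whether the mice differed between the numbers is not stated, so the spread between replicates may be technical. Genotype, CD45 form and sort gate changed together, so their effects cannot be told apart. Mice were aged 6 to 12 weeks, and the sources used here do not give the deleted part of Tnfrsf1b.

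Each ribosome is built from many ribosomal proteins, of which Rpl proteins belong to the large subunit and Rps proteins to the small one. Because their mRNAs are short and very abundant in dividing cells, they have been copied back into the genome many times. Such processed copies lack introns, usually lack a promoter of their own, and can stay nearly identical to the mRNA they came from. A read from an identical stretch can have come from either gene, and programs that place reads on transcripts, such as kallisto, then divide it between them by the reads that do tell them apart.

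In GENCODE release M21 (GRCm38), 213 of the 214 members had a transcript, 203 of them with a single exon. The annotation called 198 of them processed pseudogenes, 8 transcribed processed pseudogenes and 7 protein coding, and 62 members lay inside an intron of another gene. Their median identity to the closest transcript of the parent was 97.9%. A median of 75.9% of their 31-base stretches (the default word length of kallisto) was found in another gene too, and 35 members had no stretch of their own. In 63 members, the annotated copy held an open reading frame, stop codon included, at least as long as that of the parent.

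Within the copies, the letters by which reads could be placed are few. They are shown here for the copies on which the results turn. All sequences are from GENCODE M21 on GRCm38, 5′ to 3′ on the strand of the gene, and a capital marks a base that differs between a copy and its parent. Rpl34-ps1 lay at chr6:71124610-71124963 on the plus strand, outside any other gene, and differed from the 354-base coding sequence of Rpl34 at 2 bases.
Rpl34-ps1 bases 92 to 172: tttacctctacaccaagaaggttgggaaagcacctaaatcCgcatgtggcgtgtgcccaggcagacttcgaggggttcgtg
Rpl34 bases 92 to 172: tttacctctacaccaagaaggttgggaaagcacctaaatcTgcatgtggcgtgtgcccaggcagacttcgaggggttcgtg
Rpl34-ps1 bases 278 to 354: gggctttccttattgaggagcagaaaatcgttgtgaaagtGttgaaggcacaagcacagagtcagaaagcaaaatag
Rpl34 bases 278 to 354: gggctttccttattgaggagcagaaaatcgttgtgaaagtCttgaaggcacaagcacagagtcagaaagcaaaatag

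Rpl3-ps1, at chrX:13202571-13203780 on the plus strand and 1210 bases long, also differed from its parent at 2 bases.
Rpl3-ps1 bases 18 to 98: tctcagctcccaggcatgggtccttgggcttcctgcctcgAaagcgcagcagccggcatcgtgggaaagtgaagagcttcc
Rpl3 coding bases 17 to 97: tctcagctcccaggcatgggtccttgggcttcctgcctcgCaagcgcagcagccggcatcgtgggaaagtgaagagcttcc
Rpl3-ps1 bases 747 to 827: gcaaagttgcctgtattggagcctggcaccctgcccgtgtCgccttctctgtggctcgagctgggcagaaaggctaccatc
Rpl3 coding bases 746 to 826: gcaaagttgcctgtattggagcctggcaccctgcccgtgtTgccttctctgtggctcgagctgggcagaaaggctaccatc

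Rpl35a-ps2 (chr1:181241988-181242320, minus strand) and Rps27a-ps3 (chr6:122456904-122457374, plus strand, inside an intron of Rimklb on the other strand) each differed from the coding sequence of the parent at 1 base. Rpl35a-ps2, -ps3, -ps4 and -ps6 lay on 4 chromosomes but were 1 and the same sequence, so that no read could be placed on one of them rather than another.
Rpl35a-ps2 bases 116 to 196: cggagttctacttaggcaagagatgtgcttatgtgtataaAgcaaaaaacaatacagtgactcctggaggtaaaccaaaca
Rpl35a bases 116 to 196: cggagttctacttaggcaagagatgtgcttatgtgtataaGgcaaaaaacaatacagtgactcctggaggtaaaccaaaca
Rps27a-ps3 bases 31 to 111: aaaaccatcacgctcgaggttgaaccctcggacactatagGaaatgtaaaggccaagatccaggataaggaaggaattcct
Rps27a bases 31 to 111: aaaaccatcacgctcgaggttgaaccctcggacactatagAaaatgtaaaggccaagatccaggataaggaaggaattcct

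Rpl28-ps1 and Rps16-ps2 had 0 differences from a transcript of the parent, and the start of each is therefore the start of the parent's coding sequence as well. Both lie inside an intron, of Zranb3 and of Adgrd1.
Rpl28-ps1 bases 1 to 90: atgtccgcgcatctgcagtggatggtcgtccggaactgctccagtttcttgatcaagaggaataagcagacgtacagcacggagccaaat
Rps16-ps2 bases 1 to 90: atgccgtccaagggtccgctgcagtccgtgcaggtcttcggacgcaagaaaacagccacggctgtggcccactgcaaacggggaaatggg

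Libraries held 32713256 to 39543650 estimated counts. Levels are CPM, that is counts relative to the size of the library after TMM scaling, and a positive log2-fold change means a higher level in TNFR2 KO. As a check of the labels, Tnfrsf1b stood at 265 and 268 CPM in wild-type replicates 1 and 2 against 55.1 and 58.6 CPM with the knockout (log2-fold change −2.23 ± 0.04, SE). NK lineage genes were present in every library, with a summed 13032 and 13041 CPM in wild-type cells and 23086 and 22872 CPM in TNFR2 KO, and all 20 of the list rose. Markers of other cells differed as well: 17 of 18 macrophage or monocyte genes (2245 and 2225 CPM summed against 946 and 923), 12 of 12 neutrophil genes (991 and 1009 against 93.5 and 90.3) and 8 of 8 mast cell or basophil genes (1256 and 1250 against 30.2 and 29.4) fell, each by over 1 on the log2 scale. Of 8 erythroid genes 8 fell, of 6 T cell genes 5 fell by less than 1 and 1 rose, and the B cell list was near absent at 2.27 to 3.28 CPM summed. No marker of these lists was at 0 in all libraries. In bulk RNA, fewer cells of a type and less RNA per cell cannot be told apart, and the part of these cells in the pseudogene values was not tested. With scaling on NK lineage genes instead, the median of all genes was −0.82, so directions below are relative to the bulk of the genes, while shares within a family do not depend on scaling.

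The members took a small part of each library, lower in TNFR2 KO. They held 0.538% of the counts in both wild-type libraries and 0.495% and 0.481% in TNFR2 KO replicates 1 and 2. Summed over all members, the level was 5269 ± 5.36 CPM for wild-type and 4987 ± 105 CPM for TNFR2 KO (SD, n = 2), so the groups did not overlap. Of all counts given to members and parents together, the members took 16.5% and 16.3% in wild-type and 14.4% and 14.2% in TNFR2 KO. The 82 cytosolic ribosomal protein genes held 4.05% to 4.33% of a library.

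Most of that signal sat in few copies. Over the 4 libraries, 18 members averaged over 1000 counts, 10 had 100 to 1000, 37 had 10 to 100, and 149 had 10 or fewer. Of the values above 0, 92.4% were not whole numbers (beyond 0.001 of one), against 44.3% of all values in the table, and a value is not whole where reads were divided between genes. In all, 68 members passed the filter on low counts and were tested. The 146 others had at most 18.9 counts in any library. Members with copies and parents that share reads are uncertain throughout, and the values below are what was assigned to each.

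The quasi-likelihood test of edgeR, with Benjamini-Hochberg adjustment over 13822 genes, called 17 of the 68 tested members lower and 9 higher at an adjusted p under 0.05. Over all genes tested, 26.2% fell and 24.2% rose. With an absolute log2-fold change over 1 as well, 17 members fell and 5 rose, beside 11.8% and 1.56% of all genes. All of the 17 that fell thus did so by more than 1 on the log2 scale. The median log2-fold change of the tested members was −0.10, with an interquartile range of −1.43 to 0.14, against −0.0028 and −0.29 to 0.18 for all genes. The tested members that passed only through the group in which they were high had to differ, so these counts describe the 68 and not the 214.

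At the adjusted p alone, 8 of 36 large subunit copies were lower and 4 higher. Of 32 small subunit copies, 9 were lower and 5 higher, beside 26.2% and 24.2% of all genes tested. The 8 include 4 copies of Rpl35a with equal values in every library, which are 1 measurement. The values in the 2 groups of libraries did not overlap for 36 of the 68, where 74.0% of all genes tested did not overlap. Of the 22 members past both thresholds, 20 did not overlap, and the exceptions were Rpl19-ps11 and Rps27a-ps3. Members chosen by their difference are likely not to overlap, so this count adds no support. The other pseudogenes with names in -ps, 93 of 313 tested, had 33 lower and 5 higher past both thresholds and a median of −0.24.

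**Figure D1:**
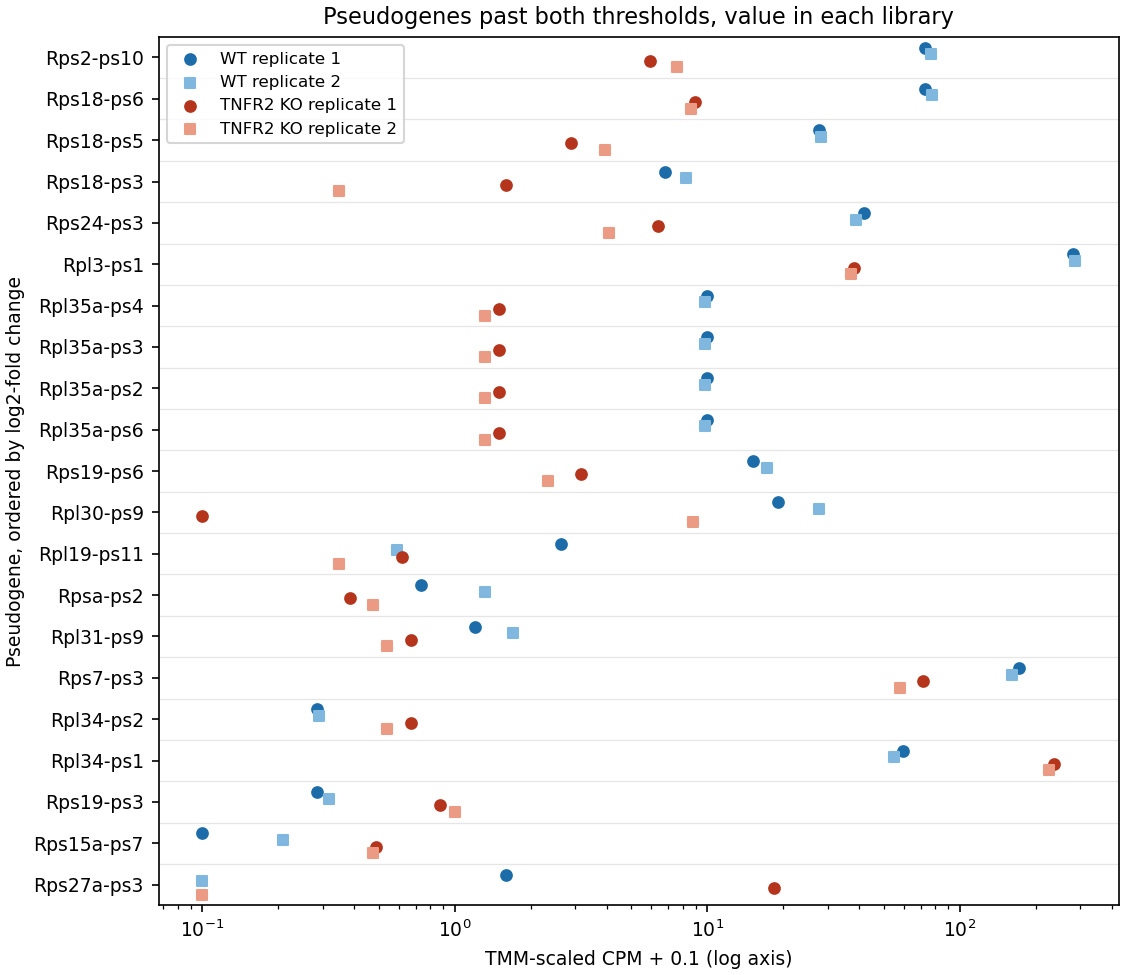
TMM-scaled CPM, plotted with 0.1 added on a log axis, of 21 of the 22 pseudogenes past both thresholds in each of the 4 libraries, ordered by log2-fold change. Blue points are wild-type and red points TNFR2 KO, circles replicate 1 and squares replicate 2. Rpl3-ps1 lay at 281 and 286 CPM in wild-type cells and at 38.1 and 36.9 CPM in TNFR2 KO, Rpl34-ps1 went the other way, and the replicates of Rps27a-ps3 lay far apart within both groups.

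In the Rpl34 family of the large subunit, a copy rose and its parent fell, both past both thresholds, which no other family showed. Rpl34-ps1 was given 59.4 and 54.8 CPM in wild-type cells and 236 and 225 CPM in TNFR2 KO cells, and it rose by 2.02 ± 0.04 (log2, SE, adjusted p = 1.17e-12). Rpl34 itself, a structural protein of the large subunit, stood at 223 and 235 CPM in wild-type cells and at 82.9 and 72.1 CPM in TNFR2 KO. It fell by 1.56 ± 0.05 (adjusted p = 1.21e-10) and was the only one of the 55 parents past both thresholds. In CPM, the summed copies of the family gained 174 while the parent fell by 152.

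Within the family, the share of counts given to Rpl34-ps1 went from 19.95% ± 1.53 in wild-type to 74.8% ± 1.24 in TNFR2 KO (SD, n = 2). The family sum was 282 and 290 CPM against 320 and 298 CPM, which rose by 0.11 ± 0.03 (adjusted p = 0.0153). The 2 copies and the parent thus changed by more than 1 on the log2 scale while their sum changed by 0.11. All of the stretches of Rpl34-ps1 occur in another gene, 80.9% of them in Rpl34. Inside the copy, only stretches that cover the 2 capital letters above tell it from Rpl34. The longest transcript of Rpl34 has 1232 bases against 354 for the copy, so reads from its other parts could also tell them apart. Rpl34-ps2, with 10 differences from the parent, had only 0.184, 0.19, 0.569 and 0.437 CPM in wild-type replicates 1 and 2 and TNFR2 KO replicates 1 and 2 (1.42 ± 0.54 on the log2 scale, adjusted p = 0.047). Its adjusted p was 0.0753 with the replicate number as a block, 0.2 in DESeq2, and 0.0986 to 0.281 with any 1 library left out.

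Rpl3 helps to form the catalytic centre of the large subunit, and its copy Rpl3-ps1 carried the smallest p of all members. Rpl3-ps1 had 281 and 286 CPM in wild-type cells and 38.1 and 36.9 CPM in TNFR2 KO, and it fell by 2.91 ± 0.03 (adjusted p = 1.09e-14). Rpl3 had 814 and 816 CPM in wild-type cells and 1121 and 1110 CPM in TNFR2 KO, and it rose by 0.45 ± 0.02 (adjusted p = 3.69e-09). The copies of the family fell by 246 CPM in sum, and the parent gained 301 CPM. The family sum changed by 0.07 ± 0.02 (adjusted p = 0.0154), from 1095 and 1102 CPM to 1159 and 1147 CPM. The share of Rpl3-ps1 in the family went from 25.8% ± 0.219 to 3.25% ± 0.0521. The copy as annotated ends before the stop codon of Rpl3, so no full frame could be counted for it.

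The 4 equal copies of Rpl35a, a structural protein of the large subunit, held the same value to the last digit, 9.86 and 9.71 CPM each in wild-type and 1.395 and 1.217 CPM each in TNFR2 KO (log2-fold change −2.90 ± 0.16, adjusted p = 1.47e-08). They are 4 of the 17 lower members but 1 measurement, and with them counted once the lower members were 14. Rpl35a itself had 244 and 235 CPM in wild-type cells and 314 and 313 CPM in TNFR2 KO, and it rose by 0.39 ± 0.03. The family sum rose by 0.19 ± 0.03, from 283 and 274 CPM to 319 and 318 CPM. A further equal copy, Gm10243, had the same counts, and with it and other near-equal copies added to their families the sum rose by 0.15.

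Replicates were less alike for Rpl30-ps9, a copy of another protein of the large subunit. It had 19.0 and 27.7 CPM in wild-type but 0 and 8.70 CPM in TNFR2 KO replicates 1 and 2 (−2.51 ± 0.69, adjusted p = 0.00951). The log2-fold change was −1.41 without TNFR2 KO replicate 1 and −12.78 without TNFR2 KO replicate 2. A count of 0 in TNFR2 KO replicate 1 would allow up to 0.0775 CPM, for counting error only. Gm12191, which shares 97.8% of the stretches of Rpl30-ps9, was given 1301, 1042, 434 and 16.0 counts in the same order of libraries, so that the TNFR2 KO library low in one was the higher in the other. Rpl30 rose by 0.43 ± 0.03 and the family sum by 0.31 ± 0.03, or by 0.17 with such copies added.

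The remaining large subunit copies past both thresholds were low. Rpl19-ps11 had 2.53 and 0.488 CPM in wild-type cells and 0.517 and 0.25 CPM in TNFR2 KO, which overlap (−1.94 ± 0.65, adjusted p = 0.0261), and without wild-type replicate 1 its log2-fold change was −0.32 (adjusted p = 0.779). Rpl31-ps9, inside an intron of Thsd7b, had 1.11 and 1.60 CPM against 0.569 and 0.437 CPM (−1.41 ± 0.37, adjusted p = 0.0074, or 0.128 without wild-type replicate 2). Their parents Rpl19 (0.14 ± 0.03) and Rpl31 (−0.01 ± 0.06) differed by far less.

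**Figure D2:**
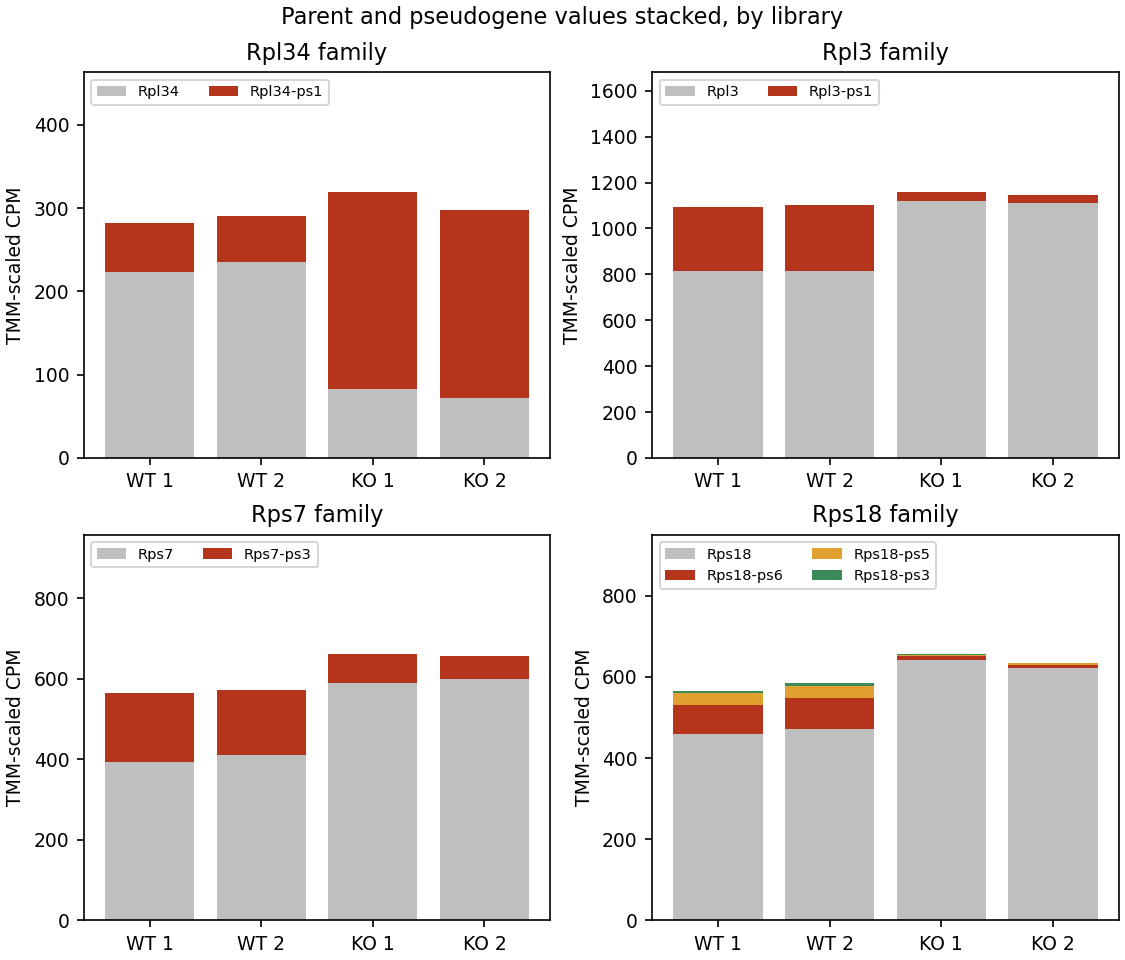
TMM-scaled CPM of the parent (grey) and of its pseudogenes with a mean of at least 1 CPM (colours), stacked, in each library for the families of Rpl34, Rpl3, Rps7 and Rps18. Bars start at 0. The coloured part grew from wild-type to TNFR2 KO for Rpl34 and shrank for the others, while the summed height of the Rpl3 family was 1095 and 1102 CPM in wild-type cells and 1159 and 1147 CPM in TNFR2 KO.

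In the small subunit, Rps2-ps10 had the lowest log2-fold change of all members. Rps2 lies where mRNA enters the small subunit, and its copy had 72.5 and 76.7 CPM in wild-type cells and 5.84 and 7.46 CPM in TNFR2 KO (−3.50 ± 0.08, adjusted p = 3.66e-12). Rps2 stood at 1356, 1402, 1381 and 1395 CPM in wild-type replicates 1 and 2 and TNFR2 KO replicates 1 and 2, a log2-fold change of 0.01 ± 0.02 (adjusted p = 0.775). Here the copy was small beside its parent, at 5.12% ± 0.082 of the family in wild-type, and the family sum fell by 0.06 ± 0.02 (adjusted p = 0.0422).

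Rps18, in the head of the small subunit, had 3 copies that fell together. Rps18-ps6 (chr13:97760072-97760632, minus strand) had 72.8 and 77.4 CPM in wild-type cells and 8.84 and 8.55 CPM in TNFR2 KO (−3.11 ± 0.06, adjusted p = 8.90e-13). Rps18-ps5 (chr13:28257528-28258134, plus strand) had 27.5 and 28.1 CPM against 2.79 and 3.84 CPM (−3.08 ± 0.12, adjusted p = 4.47e-10). Rps18-ps3 had 6.72 and 8.11 CPM against 1.499 and 0.25 CPM (−3.01 ± 0.40, adjusted p = 5.06e-05), and its log2-fold change was −4.86 without TNFR2 KO replicate 1 and −2.30 without TNFR2 KO replicate 2. The annotation used here lists the first 2 as protein coding, under the names Gm10260 and Gm11361, each with a frame as long as that of Rps18. Rps18 had 459 and 471 CPM in wild-type cells and 643 and 621 CPM in TNFR2 KO and rose by 0.44 ± 0.03, and the family sum rose by 0.16 ± 0.03. In sum the copies fell by 97.5 CPM and the parent gained 167 CPM.

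Rps7 takes part in the assembly of the small subunit, and Rps7-ps3 on chromosome X was the copy with the highest share of its family among the lower members. It had 172 and 160 CPM in wild-type cells and 71.3 and 57.8 CPM in TNFR2 KO (−1.36 ± 0.07, adjusted p = 7.81e-09), or 29.3% ± 1.71 and 9.78% ± 1.41 of the family. Rps7 went from 392 and 411 CPM to 590 and 600 CPM (0.57 ± 0.03), the highest log2-fold change of any parent, and the family sum rose by 0.22 ± 0.02. Rps24-ps3, also on chromosome X, had 41.6 and 38.8 CPM against 6.31 and 3.99 CPM (−2.94 ± 0.13, adjusted p = 1.30e-09). Its parent Rps24 rose by 0.37 ± 0.03 and the family by 0.28 ± 0.03.

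Rps19, a protein mutated in Diamond-Blackfan anaemia, had copies that moved in opposite directions. Rps19-ps6, inside an intron of Tecpr2 and on its strand, had 15.1 and 17.1 CPM in wild-type cells and 3.05 and 2.25 CPM in TNFR2 KO (−2.59 ± 0.15, adjusted p = 1.89e-08). Rps19-ps3 had 0.184 and 0.217 CPM against 0.775 and 0.905 CPM (2.04 ± 0.48, adjusted p = 0.00347). Rps19-ps3 had 205 stretches of its own and 95.4% identity to the parent. It lies at chr4:147821777-147822202, 2.57 Mb from Tnfrsf1b (chr4:145213463-145246870), and was the nearest to it of the 3 tested members on that chromosome. The log2-fold changes of Rps19 and of the family sum were 0.07 ± 0.03 (adjusted p = 0.0825) and 0.02 ± 0.03.

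The other small subunit copies described here rested on few counts or on libraries that did not match. Rpsa-ps2 had 0.633 and 1.22 CPM in wild-type cells and 0.284 and 0.374 CPM in TNFR2 KO (−1.49 ± 0.48). Its adjusted p of 0.0213 became 0.334 without wild-type replicate 2 (log2-fold change −0.93) and 0.0821 without TNFR2 KO replicate 1. Rps15a-ps7 had 0 and 0.108 CPM in wild-type cells and 0.388 and 0.374 CPM in TNFR2 KO (2.76 ± 0.90, adjusted p = 0.0226), with an adjusted p of 0.188 without wild-type replicate 1 and 0.0595 without TNFR2 KO replicate 1. Its log2-fold change was 1.79 without wild-type replicate 1 and 6.80 without wild-type replicate 2. Rps27a encodes a small subunit protein fused to ubiquitin, and its copy Rps27a-ps3 had 1.502 and 0 CPM in wild-type cells and 18.3 and 0 CPM in TNFR2 KO, where the counts of 0 would allow up to 0.0813 and 0.0936 CPM. Its log2-fold change of 3.61 ± 1.31 (adjusted p = 0.0368) rested on TNFR2 KO replicate 1 alone, and it was −7.75 without that library and 11.39 without wild-type replicate 1. Without wild-type replicate 2 its adjusted p was 0.0842. DESeq2 gave the same gene an adjusted p of 0.592, and gave 0.617 for Rpl30-ps9, 0.181 for Rpl19-ps11, 0.069 for Rps15a-ps7 and 0.0701 for Rpsa-ps2.

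**Figure D3:**
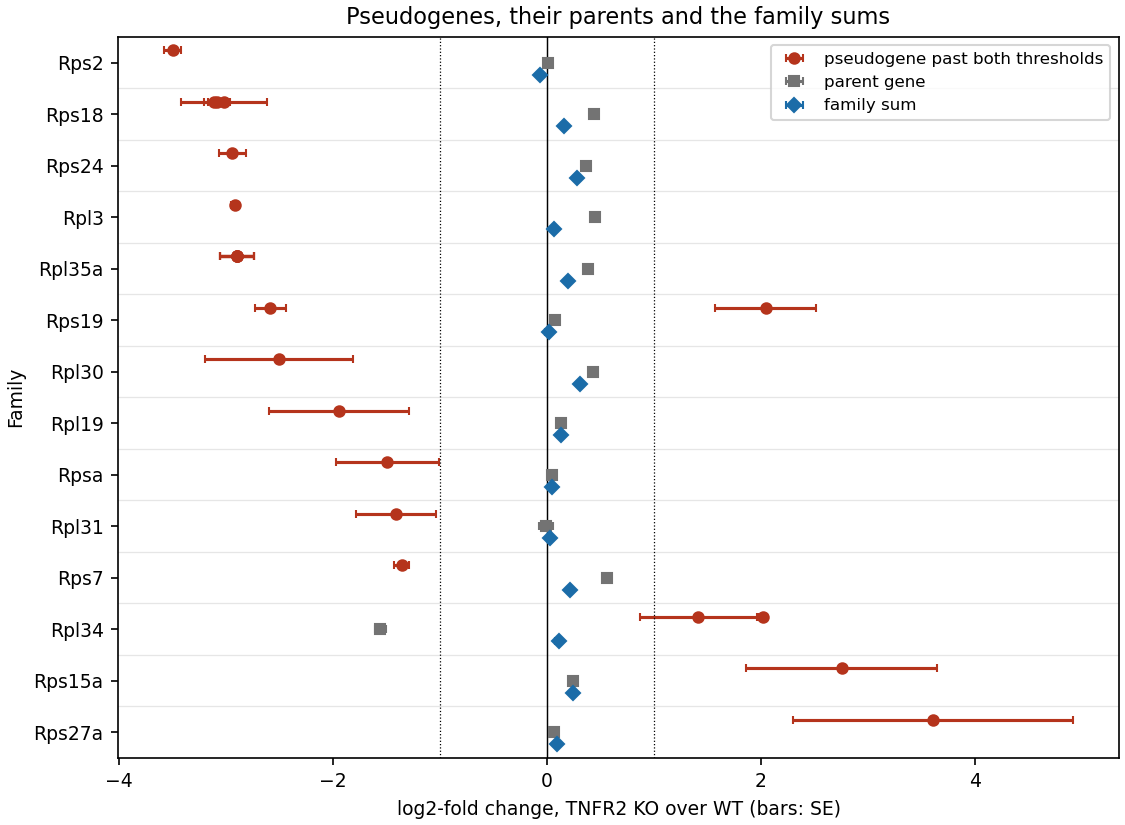
log2-fold change, TNFR2 KO over wild-type, with SE bars, of 21 of the 22 pseudogenes past both thresholds (red circles), their 14 parent genes (grey squares) and the family sums (blue diamonds). Dotted lines mark −1 and 1. Of the 14 parents, Rpl34 at −1.56 was past them, and the family sums lay between −0.06 and 0.31.

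Set beside their parents, most of these copies stood apart from them. Of the 22 members past both thresholds, 15 had a parent that changed in the opposite direction at an adjusted p under 0.05. A further 6 had a parent that was not called, and 1 had a parent that changed in the same direction. The 15 include the 4 equal copies of Rpl35a, which are 1 measurement, and the directions are those under TMM scaling. Among the 55 parents, 36 rose and 3 fell at an adjusted p under 0.05 (0 and 55 when scaled on NK lineage genes, 14 and 12 when scaled on ribosomal protein genes), but 0 rose and 1 fell past both thresholds, and their median was 0.12. The list of 82 cytosolic ribosomal protein genes, of which the parents are part, had 51 higher and 4 lower and a median of 0.11.

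The counts of each parent and all its copies were then summed before the test. Of the 55 families, 38 rose and 3 fell at an adjusted p under 0.05, where 24.3% and 26.3% of the 13754 rows in that table did (0 and 55 families when scaled on NK lineage genes, 12 and 12 when scaled on ribosomal protein genes). None of the 55 was past both thresholds in either direction in edgeR, against 13.2% of all rows, and DESeq2 gave 0 as well, while 43 had an unadjusted p under 0.05. The family sums ran from −0.10 for Rps26 to 0.47 for Rpl21, with a median of 0.12. The 3 that fell were Rps2, Rpl36a and Rps26, by at most 0.10.

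The counts given to the abundant copies differed little between the genotypes. By mean CPM the first 10 were Rpl10-ps3, Rps12-ps3, Rps6-ps4, Rps23-ps1, Rpl28-ps1, Rps16-ps2, Rpl10a-ps1, Rpl31-ps8, Rpl15-ps3 and Rps13-ps2, and all had log2-fold changes from −0.07 to 0.16. Among them, Rpl28-ps1, Rpl10a-ps1, Rpl31-ps8 and Rpl15-ps3 had 0 differences from a parent transcript and no stretch of their own. No read inside such a copy can tell it from its parent, so a change of the copy itself could not be seen. Rpl10-ps3, a copy of a protein added late in the assembly of the large subunit, had 706 and 694 CPM in wild-type cells and 746 and 789 CPM in TNFR2 KO and rose by 0.13 ± 0.03 (adjusted p = 0.00195). Rps12-ps3, inside an intron of Pdzd8, had 520, 542, 523 and 535 CPM in wild-type replicates 1 and 2 and TNFR2 KO replicates 1 and 2 (−0.01 ± 0.03). It was given 96.3% ± 0.0474 of the counts of its family in wild-type and 96.4% ± 0.0867 in TNFR2 KO. Its parent Rps12 was given 18.5, 19.9, 17.9 and 19.0 CPM.

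Rps23-ps1 (407 and 415 against 443 and 445 CPM, 0.11 ± 0.02, adjusted p = 0.00245) and Rps16-ps2 (337 and 332 against 389 and 358 CPM, 0.16 ± 0.04, adjusted p = 0.00239) rose with their parents Rps23 (0.18 ± 0.03) and Rps16 (0.13 ± 0.03). Rps23 lies at the decoding centre of the small subunit. Rps6-ps4, a copy of the target of S6 kinase, had 489 and 473 CPM against 534 and 486 CPM (0.09 ± 0.04, adjusted p = 0.0796). Rpl28-ps1 had 405 and 410 CPM against 399 and 378 CPM (−0.07 ± 0.03, adjusted p = 0.0661). Both had an adjusted p under 0.05 with the replicate number as a block, at 0.0143 and 0.046.

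The other 4 of the 10 did not pass the test: Rpl10a-ps1 (337, 332, 341 and 318 CPM), Rpl31-ps8 (308, 311, 320 and 321 CPM), Rpl15-ps3 (299, 283, 280 and 282 CPM) and Rps13-ps2 (249, 248, 259 and 242 CPM), with wild-type before TNFR2 KO. Per length, the mean level was 1073 CPM per kb for Rps12-ps3, 1005 for Rps23-ps1, 962 for Rpl28-ps1 and 956 for Rpl10-ps3, against 407 for Rpl34-ps1 and 132 for Rpl3-ps1.

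The copies were next set in order of their likeness to the parent. Of the 12 members with 0 differences from a parent transcript, 11 were tested, and their log2-fold changes ran from −0.07 to 0.16. At the adjusted p alone 3 were higher and 0 lower, and 0 were past both thresholds. Each of these 11 took between 38.7% and 96.5% of its family in every library, and that share changed by at most 3.38 percentage points between the genotypes. Of the 52 members with 1 to 5 differences, 28 were tested, and 13 fell and 3 rose past both thresholds. Their median absolute log2-fold change was 1.68. The 13 include the 4 equal copies of Rpl35a, each with 1 difference, which are 1 measurement entered 4 times. Of the 149 with more than 5 differences, 29 were tested, and 4 fell and 2 rose past both thresholds, with a median absolute log2-fold change of 0.37.

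Counts limit that comparison, since most copies with differences were low. Among the 21 tested members of at least 10 CPM, the 11 with 0 differences had 0 past both thresholds. All 6 with 1 to 5 differences were past them, 5 lower and 1 higher, as were 2 of the 4 with more than 5. Those of the last group were Rps18-ps5 and Rps18-ps6, whose 56 and 20 differences were mostly gaps in the alignment (51 and 14), with 5 and 6 substitutions. The other 2, Rpl10-ps3 and Rpl14-ps1, had log2-fold changes of 0.13 and 0.02. Of the 36 tested members under 1 CPM, 7 were called at the adjusted p, where 26.2% of all genes tested, at any level, fell and 24.2% rose.

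**Figure D4:**
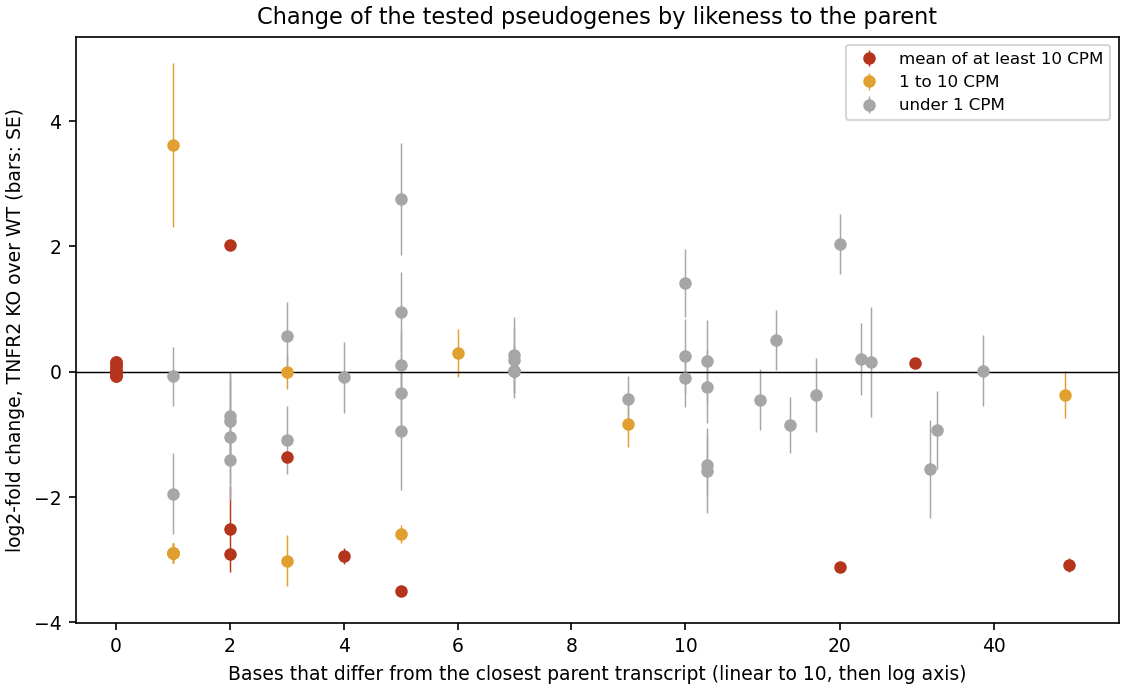
log2-fold change, TNFR2 KO over wild-type, with SE bars, of 67 of the 68 tested pseudogenes against the number of bases that differ from the closest parent transcript (linear to 10, then a log axis). Colours give the mean level. The 11 copies with 0 differences lay within −0.07 and 0.16, and copies with 1 to 5 differences spread from −3.50 to 3.61.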

How the data were processed

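Members and lists were chosen with earlier results of these data known. RNA-seq libraries of Ly49H+ NK cells (2 wild-type, 2 TNFR2 KO) were grouped by their labels. The authors prepared poly-A selected, strand-specific libraries, trimmed paired reads (Trimmomatic 1.4), assigned them to mm10 transcripts (kallisto 0.46.1) and gathered them into genes by Tximport. The deposited values are these estimated counts (expected counts), unscaled. The sources used here do not give the annotation. Because an estimated count divides shared reads by a model, values of near-identical genes depend on each other and can move without a change in either.

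Counts were rounded, filtered (filterByExpr), TMM-scaled and tested with edgeR 4.0.16 in R 4.3.3 (quasi-likelihood, genotype only, Benjamini-Hochberg over all genes), with limits of 0.05 on the adjusted p and 1 on the absolute log2-fold change. SE is the absolute log2-fold change over the square root of F. A row without a gene name (0.0559% to 0.0728% of counts) was left out. With 2 libraries against 2, an exact two-sided permutation p cannot be under 0.333, so p-values come from fits across all genes. They measure the spread between these libraries, which may be technical, since separate mice behind the 2 numbers are not stated. Simulated with 197 of 13585 genes changed, edgeR recovered 92.4% with 1 false call and DESeq2 1.42.0 88.3% with 0. Genes were drawn independently there, without shared reads, and far fewer changed than were called in these data. Those rates therefore do not carry over to the members.

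Per the labels, same-numbered libraries came from the same pooled spleens, so the numbers pair the samples; their deviations correlated at 0.0575 across genes. With the replicate number as a block, 17 members fell and 4 rose past both thresholds.

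Copies were matched to GENCODE M21 (GRCm38) by symbol (200), RefSeq synonym (8) or position (5), and 1 had no match. Differences are edits (edlib 1.3.9.post1) to the closest parent transcript. Named by rule were Tnfrsf1b, members past both thresholds (at most 10 a direction, by adjusted p), the 10 highest in CPM, the 3 highest and lowest in log2-fold change, and their parents. A further 6 lower members (Rps18-ps3, Rps19-ps6, Rpl30-ps9, Rpl19-ps11, Rpsa-ps2, Rpl31-ps9), their parents, Gm12191, Gm10243, Rpl14-ps1, Rpl36a, Rps26 and Rpl21 were named after their values were seen, and 1 member is counted but not reported here. Alternatives were other scalings and filters, DESeq2, the block, each library left out, and near-equal copies (80% of stretches shared) added to families.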

Additional observations from a re-analysis of the deposited data

How the results depend on the processing

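Of the 22 members past both thresholds, 14 (12 lower, 2 higher) were so under every scaling, DESeq2, no filter, the block and each library left out, and the other 8 were not under at least 1 of these. Among the 14, the 12 lower ones include the 4 equal copies of Rpl35a, which are 1 measurement. A filter at a mean of 10 CPM kept 21 members, and 7 of those 14 were then tested. Depth limits the members under 1 CPM, 36 of the 68 tested, whose counts cannot show small differences.

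Counts of members past both thresholds (17 lower, 5 higher) became 27 and 2 when scaled on NK lineage genes. Under the 10 CPM filter they were 7 and 1. DESeq2 gave 2 higher and kept 16 of the 22, losing Rpl19-ps11, Rpl30-ps9 and Rpsa-ps2 among the lower. Leaving out 1 library gave 15 to 25 lower and 2 to 4 higher, with 3 higher without wild-type replicate 1 and 2 without TNFR2 KO replicate 1. At the adjusted p alone (17 lower, 9 higher), scaling on ribosomal protein genes gave 26 and 4, on NK lineage genes 41 and 2, and the 10 CPM filter 9 and 5. With 1 library left out these counts were 15 to 27 and 6 to 9, the 27 without TNFR2 KO replicate 1, when 79 members were tested. A paired fit, in which the replicate number is a block, gave 17 lower and 4 higher past both thresholds and 18 and 9 at the adjusted p, and for parents 37 higher and 3 lower. Among the named genes this block changed no call other than those of Rpl34-ps2, Rps6-ps4 and Rpl28-ps1.

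Parents called lower (3) were 12 when scaled on ribosomal protein genes, 55 on NK lineage genes, and 1 to 3 with 1 library left out (1 without wild-type replicate 2), and parents called higher (36) were 14 and 0 under those scalings. Families called lower (3) were 1 with upper-quartile scaling, 1 without a filter, 5 with library size alone, 12 and 55 under those scalings, and 0 to 2 with 1 library left out (0 without wild-type replicate 2, 1 without TNFR2 KO replicate 2), and families called higher (38) were 12 and 0. No family was past both thresholds under any of the alternatives. Without the most abundant copy of each family, the members took 0.324% and 0.335% of the counts given to members and parents together in wild-type. In TNFR2 KO this share was 0.105% and 0.0799%. The median of all genes shifted to −0.14 when scaled on ribosomal protein genes and to −0.82 on NK lineage genes. The cause of these changes was not tested.

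Signs of named genes turned as follows. On NK lineage genes the log2-fold change was −0.69 for Rpl10-ps3, −0.73 for Rps6-ps4, −0.71 for Rps23-ps1, −0.66 for Rps16-ps2, −0.77 for Rpl31-ps8, −0.80 for Rps13-ps2, −0.73 for Rpl10, −0.75 for Rpl15, −0.76 for Rpl28, −0.36 for Rpl3, −0.43 for Rpl35a, −0.60 for Rps13, −0.57 for Rps15a, −0.69 for Rps16, −0.38 for Rps18, −0.75 for Rps19, −0.81 for Rps2, −0.64 for Rps23, −0.45 for Rps24, −0.75 for Rps27a, −0.61 for Rps6 and −0.25 for Rps7. On ribosomal protein genes it was −0.0028 for Rpl10-ps3, −0.0501 for Rps6-ps4, −0.025 for Rps23-ps1, −0.085 for Rpl31-ps8, −0.12 for Rps13-ps2, −0.047 for Rpl10, −0.063 for Rpl15, −0.0804 for Rpl28, −0.0054 for Rps16, −0.064 for Rps19, −0.13 for Rps2 and −0.069 for Rps27a. With library size alone it was −0.0103 for Rpl31-ps8, −0.046 for Rps13-ps2, −0.0062 for Rpl28 and −0.052 for Rps2, under the 10 CPM filter −0.022 for Rps13-ps2 and −0.027 for Rps2, and with upper-quartile scaling 0.0035 for Rps12-ps3 and 0.0029 for Rpl31. With 1 library left out, the range was −7.75 to 11.39 for Rps27a-ps3, −0.028 to 0.034 for Rps12-ps3, −0.062 to 0.034 for Rpl10a-ps1, −0.026 to 0.067 for Rps13-ps2, −0.091 to 0.066 for Rpl10a, −0.0053 to 0.13 for Rpl28, −0.13 to 0.12 for Rpl31, −0.10 to 0.0045 for Rps12 and −0.0067 to 0.042 for Rps2.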
